A study of Rattus norvegicus with 18 samples.

Results

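This account covers 9 rat genes that encode Reg lectins and other epithelial antibacterial proteins: Reg3a, Reg3b, Reg3g, Reg1a, Dmbt1, Saa3, Pla2g2a, Lyz2 and Pigr. They were chosen by name, and every probe set that the array annotation ties to exactly 1 of these symbols was taken. Each gene had 1 such probe set, so they are 9 of the 14218 genes with a probe set of 1 symbol. Their signals were read on 18 Affymetrix arrays of scraped colon mucosa, 1 proximal and 1 distal from each of 9 rats (numbered 1 to 8 and 10). Both groups came from male Sprague Dawley rats fed modified AIN-93G for 10 days, then given 15 mg per kg of the colon carcinogen azoxymethane subcutaneously and killed 6 h afterwards. The outer 0.5 cm at each end of the colon was discarded, the next 4 cm was scraped, and 4.5 µg of RNA was used for an array. All rats had azoxymethane and no untreated rat is among the samples, so the values describe treated mucosa and bear only on the 2 regions. The series describes 10 rats in 2 allocation groups, which the labels do not assign to rats, and rat 9 was not analysed here.

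Reg3 proteins are small C-type lectins that gut epithelial cells secrete into the mucus, where they bind bacterial cell walls and keep bacteria away from the surface. Their transcription in gut epithelium is known to rise with bacterial contact, through Toll-like receptor signalling and through interleukin 22 and Stat3. Dmbt1 is a secreted scavenger protein that binds bacteria, Saa3 is an acute-phase lipoprotein also made by gut epithelium, Pla2g2a is a phospholipase that breaks bacterial membranes, Lyz2 is a lysozyme that cuts peptidoglycan, and Pigr carries dimeric IgA across the epithelium. Reg1a and several Reg3 proteins are also known as products of pancreatic acinar cells.

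The Reg genes lie side by side on rat chromosome 4 in the order Reg3b, Reg3b-ps1 (a pseudogene), Reg3a, Reg1a, the long non-coding RNA LOC102556035 and Reg3g. The 250 bases before their annotated starts are shown because Reg3b and Reg3g differed between the regions on the arrays. Of the genes between them, Reg1a was not called and Reg3a read too low for the main test. The bases before Saa3 are shown because its regions lay farthest apart, with the widest gap between the lowest proximal and the highest distal array. The sequences come from RefSeq on assembly GRCr8, and each is written 5′ to 3′ on the strand of its gene. Capitals mark matches to TTCNNNGAA (a Stat motif), TTNNGNAA (a C/EBP motif) or the NF-kB motif. The windows are chr4:112419526-112419775 (plus strand) for Reg3b, chr4:112484739-112484988 (minus strand) for Reg3g, chr4:112430147-112430396 (plus strand) for Reg3a, chr4:112450216-112450465 (plus strand) for Reg1a and chr1:106358431-106358680 (minus strand) for Saa3. Reg3a has a second annotated start, whose window overlaps this one.
Reg3b: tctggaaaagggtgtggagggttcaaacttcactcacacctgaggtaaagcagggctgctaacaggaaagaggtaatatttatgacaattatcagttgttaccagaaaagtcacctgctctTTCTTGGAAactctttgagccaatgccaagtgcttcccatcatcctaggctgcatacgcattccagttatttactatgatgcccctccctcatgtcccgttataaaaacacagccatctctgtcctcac
Reg3g: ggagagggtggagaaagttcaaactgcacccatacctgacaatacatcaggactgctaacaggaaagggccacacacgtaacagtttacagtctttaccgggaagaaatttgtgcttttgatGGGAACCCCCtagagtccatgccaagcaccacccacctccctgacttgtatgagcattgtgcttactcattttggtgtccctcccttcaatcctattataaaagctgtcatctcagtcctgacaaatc
Reg3a: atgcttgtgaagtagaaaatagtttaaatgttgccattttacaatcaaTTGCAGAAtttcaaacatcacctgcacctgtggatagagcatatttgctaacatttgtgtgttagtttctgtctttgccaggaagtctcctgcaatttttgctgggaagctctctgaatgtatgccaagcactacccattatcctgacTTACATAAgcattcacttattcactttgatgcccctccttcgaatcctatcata
Reg1a: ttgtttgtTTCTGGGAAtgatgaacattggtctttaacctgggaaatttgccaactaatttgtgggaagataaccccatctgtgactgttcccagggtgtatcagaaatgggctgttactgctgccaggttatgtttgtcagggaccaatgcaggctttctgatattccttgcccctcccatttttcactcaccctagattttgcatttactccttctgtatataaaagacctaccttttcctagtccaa
Saa3: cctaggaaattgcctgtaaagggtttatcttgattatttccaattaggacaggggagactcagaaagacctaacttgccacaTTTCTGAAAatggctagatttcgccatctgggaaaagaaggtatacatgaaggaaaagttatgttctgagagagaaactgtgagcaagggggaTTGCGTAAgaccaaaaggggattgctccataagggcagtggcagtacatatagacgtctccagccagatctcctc

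Of the 9 members, 8 had an entry in the promoter table, and Dmbt1 had none. Both strands were searched in the 250-base windows, and matches of different motifs can overlap. A match is a description of the letters and not of a bound site. The Stat motif TTCNNNGAA was in 2 of the 8 members' windows, 129 bases before the start of Reg3b and 242 before that of Reg1a, and in 7.67% of 33469 rat promoter windows of the same length. The NF-kB motif was in 1 member's window, 128 bases before the start of Reg3g, and in 6.33% of all windows. TTNNGNAA was in those of Reg3a, Saa3, Pla2g2a and Lyz2 and in 37.2% of all, CTGGGA (an interleukin 6 response element) in those of Reg3a, Reg1a and Saa3 and in 25.7% of all. TTTATN (a Cdx motif) was in those of 6 members and in 39.2% of all. In Reg3g and Reg1a its only match was the letters tataaa, 32 and 29 bases before the start. Reg3b held tataaa 29 bases before its start as well as a second match. The count therefore includes tataaa close to the start, and whether any match is a Cdx site was not tested. These counts use the first window of Reg3a; its second window also holds TTTATN. The windows were aligned in pairs with gaps, so not all 250 bases were paired (240 for Reg3b and Reg3g). Identical bases made up 60.4 to 66.0% of the 250 among the 3 Reg3 genes (3 pairs). The share was 53.2 to 58.4% between Reg1a and the Reg3 genes (3 pairs) and 47.2 to 54.4% for all other pairs of members (22 pairs).

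Levels below are log2(signal + 16) after quantile normalization, which gives every array the same distribution of values. Probe sets in the lowest 30% by mean (a mean log2 level under 5.54) were left out of the test, and 8 of the 9 members passed; Reg3a did not. Proximal and distal arrays were compared with limma over 21729 probe sets, and a gene was called at a Benjamini-Hochberg adjusted p below 0.05. Levels are compared between arrays for the same probe set, never between genes. Nothing was measured in single cells, so fewer cells of a type and less RNA per cell cannot be told apart in these scrapings. Within a region the 9 arrays come from separate animals, but both regions come from the same rats. The limma fit had no block, so its p-values rest on the spread of arrays within regions and not on within-rat differences. The exact sign permutations below use the within-rat differences.

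The epithelial origin of the scrapings was read from 11 epithelial markers, all measured, whose mean log2 level was 12.37 to 12.66 in proximal and 12.31 to 12.48 in distal arrays. The level was lower in distal colon in all 9 rats: Krt20, Vil1, Cdx1 and Cdx2 (4 of the 11) were called as 1.34- to 1.55-fold higher in proximal colon, the direction of the called members, and the part of this difference in their results was not tested. A few libraries stood apart. The proximal array of rat 4 held pancreatic acinar transcripts: the summed linear signal of the 15 measured acinar markers (of 16 listed) was 18550 there and 491.9 to 1053 on the other arrays. Smooth muscle markers (10 of 10 measured) had a mean log2 level of 12.21 in the proximal array of rat 3 against 6.69 to 8.54 in the other proximal arrays, and of 9.80 and 9.76 in the distal arrays of rats 3 and 7. The differences between regions are given with and without these arrays.

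Of the 8 members tested, Reg3b, Reg3g, Dmbt1, Saa3 and Pla2g2a were higher in proximal colon, none was higher in distal colon, and Reg1a, Lyz2 and Pigr were not called. In limma, 5 members had an unadjusted p below 0.05 with higher proximal signal and 0 with higher distal signal. Among all 11407 genes tested, 30.8% were called, 14.5% as higher in proximal and 16.2% as higher in distal colon. All 5 called members differed by at least 2-fold, as did 1.99% of all genes in that direction. On this normalized scale the same 5 were higher in proximal colon in all 9 rats, which held for 10.2% of all genes. For Reg3b, Reg3g, Dmbt1 and Saa3 the lowest proximal array lay above the highest distal array, which held for 3.67% of all genes. The median difference of the 8 tested members, distal minus proximal, was -2.49 on the log2 scale, against 0.01 for all genes. The distal means of Reg3b and Reg1a lay below the filter level, so both genes passed only through their proximal arrays. These counts and the median therefore describe the members without supporting a difference. Without the 3 arrays of highest smooth muscle level, the log2 differences were -3.57 for Reg3b, -4.07 for Reg3g, -3.43 for Dmbt1, -5.0 for Saa3, -1.11 for Pla2g2a, -0.55 for Reg1a, 0.18 for Lyz2 and 0.02 for Pigr. Without the proximal array of rat 4 they were -4.06, -4.67, -3.81, -5.15, -1.12, -0.24, 0.12 and 0.04. Each of the 5 called members stayed called in both.

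**Figure D1:**
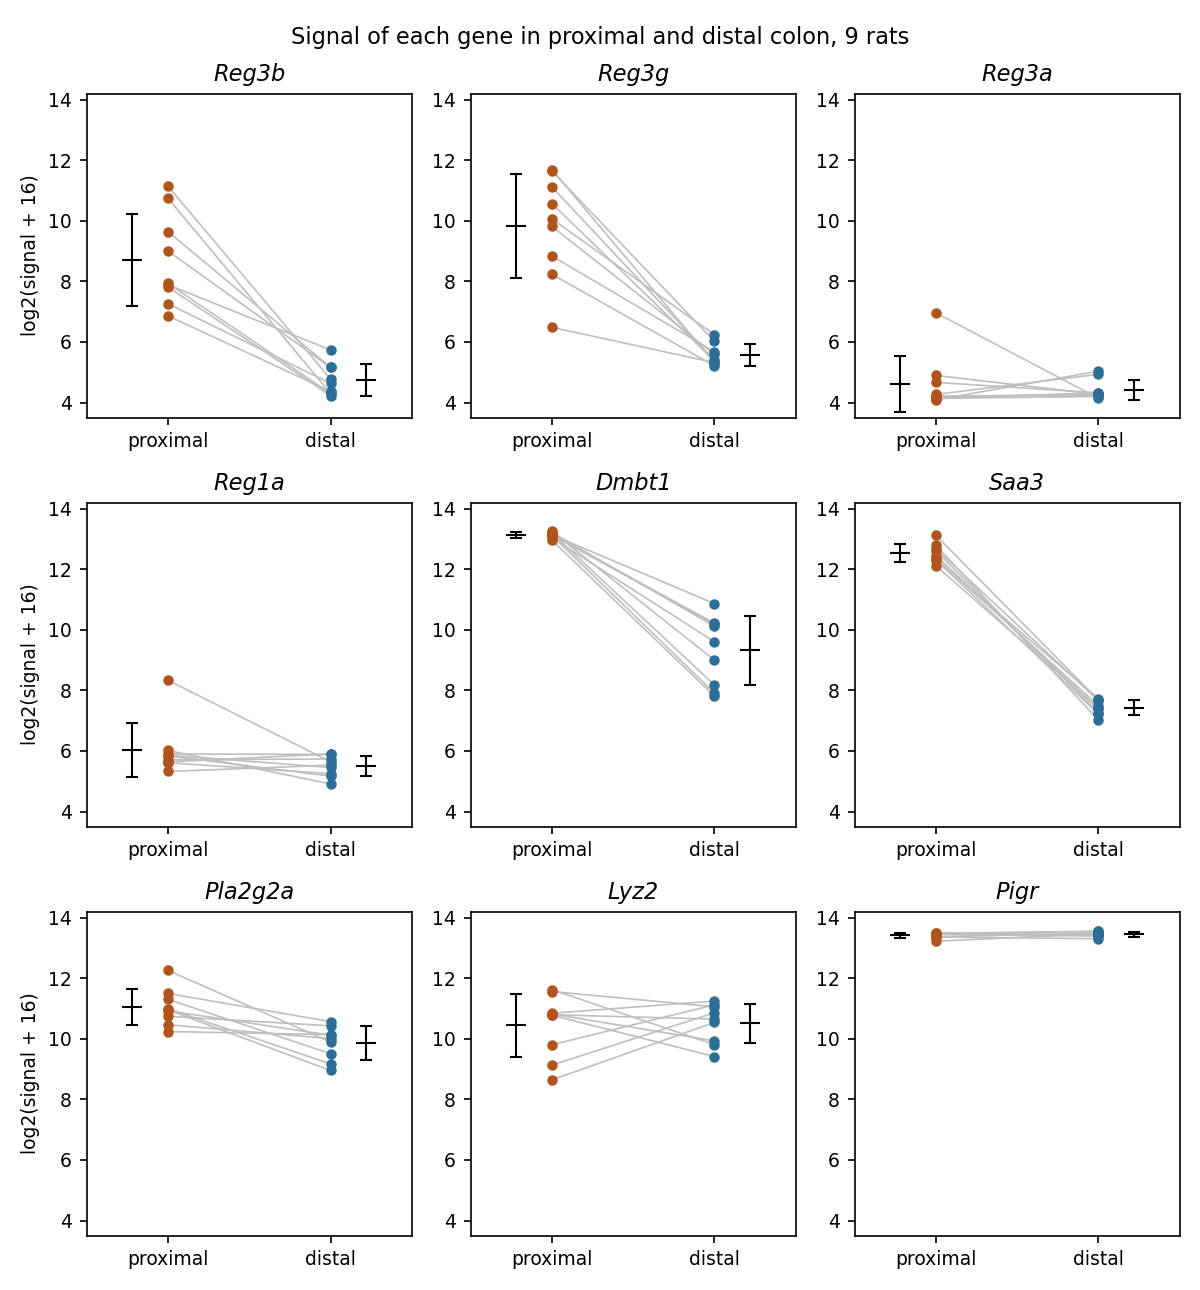
Log2(signal + 16) of each of the 9 members in the proximal and the distal array of each rat, with a line joining the pair of arrays of 1 rat and black bars for the mean ± SD of each region (n = 9). On this normalized scale Reg3b, Reg3g, Dmbt1 and Saa3 fall in every rat with no overlap of the regions. On the same scale Pla2g2a falls in every rat with overlap, and the lines of Lyz2 and Pigr run both ways.

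Reg3g, a lectin directed at Gram-positive bacteria, was high in most proximal arrays and near the low end of the scale in all distal arrays. Its probe set, 1370631_at, read 8.84, 10.56, 11.12, 6.48, 11.64, 11.69, 9.81, 8.23 and 10.06 in proximal colon of rats 1, 2, 3, 4, 5, 6, 7, 8 and 10. In the distal colon of the same rats it read 5.68, 5.38, 5.39, 5.32, 6.02, 5.31, 5.59, 5.21 and 6.24. Rats 5 and 6 had the highest proximal values, and rat 4 had the lowest, 0.25 above the highest distal value. The mean was 9.82 ± 1.72 (SD, n = 9) in proximal and 5.57 ± 0.35 (SD, n = 9) in distal colon. The proximal excess was 19.1-fold, with a 95% interval of 8.89- to 41.0-fold and a limma adjusted p of 5.4e-06. An exact permutation of the signs of the 9 within-rat differences gave p = 0.00391 (two-sided), the smallest that 9 pairs allow. Within a rat, the proximal excess ran from 2.24-fold to 83.1-fold, with a median of 18.7-fold. The added 16 shrinks folds at low signal: on the deposited linear scale, the median was 1002 in proximal and 24.6 in distal colon. Without the proximal array of rat 4 the excess was 25.5-fold.

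Reg3b, the partner lectin, known for its action on Gram-negative bacteria, had the same direction in every rat. Its probe set, 1368238_at, read 6.86, 9.0, 10.74, 7.89, 7.94, 11.14, 7.81, 7.26 and 9.64 in proximal colon, in the same order of rats, and 4.37, 5.16, 4.30, 5.74, 4.30, 4.77, 4.23, 4.63 and 5.16 in distal colon. Rats 3 and 6 were the highest in proximal colon and rat 1 the lowest, which still lay 1.13 above the highest distal array, that of rat 4. The mean was 8.70 ± 1.52 (SD, n = 9) in proximal and 4.74 ± 0.52 (SD, n = 9) in distal colon. In 8 of the 9 distal arrays the signal was below the level of the filter, so that the distal level is close to what the array reads for weak probe sets. Reg3b passed the filter only through its proximal arrays. The proximal excess was 15.6-fold (95% interval 7.70- to 31.4-fold, limma adjusted p = 4.66e-06, and 6.24e-06 in the fit without a filter), and the exact sign permutation gave p = 0.00391. That size depends on the added 16: the log2 difference was -5.31 with 1 added and -2.68 with 64 added, both outside the interval of -4.97 to -2.95, with the direction and call kept. Within a rat it ran from 4.44-fold to 86.8-fold, and the linear medians were 234.2 and 9.08. Without the proximal arrays of rats 3 and 6 the log2 difference moved from -3.96 to -3.32 for Reg3b and from -4.26 to -3.81 for Reg3g, and both stayed called.

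Reg3a, another Reg3 lectin, read near the low end of the scale in all arrays but the proximal array of rat 4. Its probe set, 1387930_at, read between 4.09 and 4.89 in 8 of the proximal arrays and 6.96 in that of rat 4. The distal arrays ranged from 4.14 to 5.04 with a median of 4.27. Signals were below the filter level in 8 proximal and all 9 distal arrays, with linear medians of 2.55 and 3.25. The regions overlapped, with 3 rats higher in proximal and 6 higher in distal colon. These directions, and the differences below, describe signals near the low end of the scale. Since Reg3a was below the filter, it was read from the fit without a filter, where the distal minus proximal difference was -0.20 (SE 0.30) with a limma adjusted p of 0.705. Without the proximal array of rat 4 the sign turned, at 0.09.

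Reg1a, first known as a pancreatic stone protein, was highest in the same array. Its probe set, 1368629_at, had a lowest, median and highest value of 5.32, 5.84 and 8.33 in proximal colon and of 4.91, 5.53 and 5.90 in distal colon. The highest value was that of rat 4, and the next was 6.02 in rat 10; the regions overlapped. The proximal excess was 1.44-fold and was not called (log2 difference -0.53, SE 0.29, 95% interval -1.14 to 0.09, limma adjusted p = 0.201), with 6 of 9 rats higher in proximal colon and an exact sign permutation p of 0.0898. Without that array the proximal mean was 5.74 ± 0.22 (SD, n = 8) and the difference was -0.24 (adjusted p = 0.259).

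The acinar markers were high in that same library. Of the 15 measured, 14 had their highest value of the 18 arrays there, and 12 lay more than 2 log2 units above the next array. Amy2a3 (an amylase) read 12.21 there and 4.06 to 5.09 elsewhere, Prss1 (a trypsinogen) 10.83 against 4.41 to 5.97, and Pnlip (a lipase) 10.27 against 5.02 to 6.14. Ptf1a, a pancreatic transcription factor, was the exception, at 5.41 within a range of 4.15 to 5.50 elsewhere. Reg3g was at its lowest proximal value in this array and Reg3b at 7.89, close to its proximal median of 7.94. The part of the acinar transcripts in the signals of Reg3a and Reg1a was not tested.

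**Figure D2:**
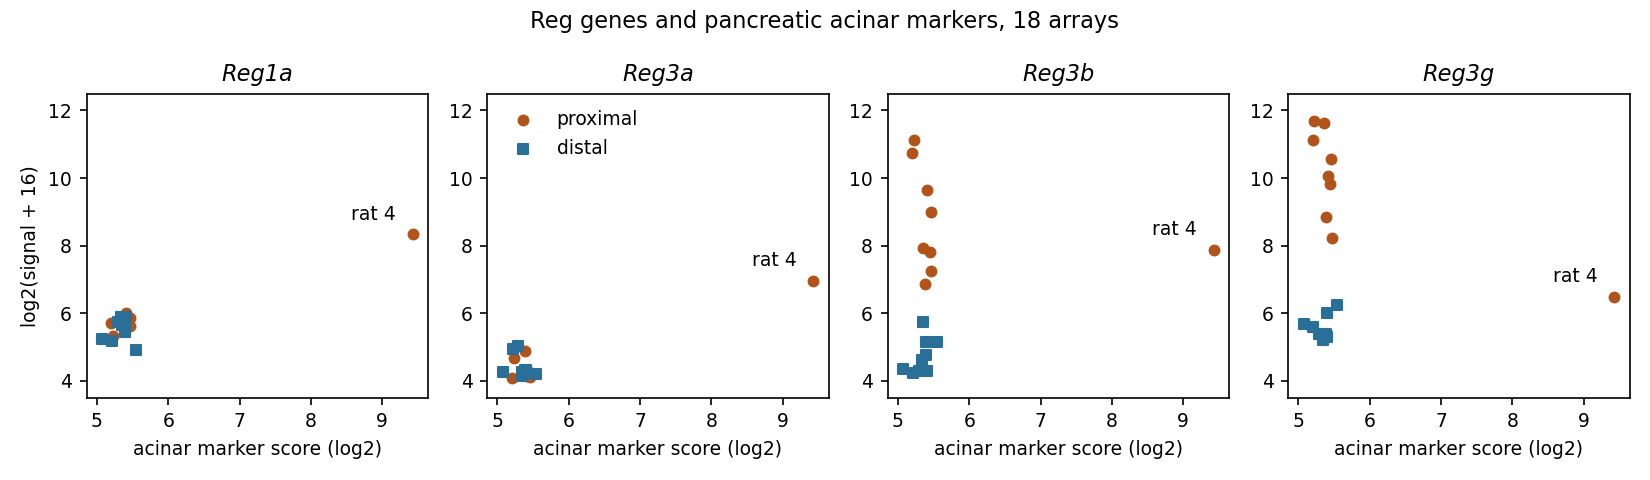
Log2(signal + 16) of Reg3a, Reg1a, Reg3b and Reg3g against the mean log2 level of the measured pancreatic acinar markers in each of the 18 arrays, coloured by region. The proximal array of rat 4 sits alone at an acinar level of 9.43, where Reg3a (6.96) and Reg1a (8.33) are at their highest and Reg3g is at its lowest proximal value (6.48).

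Saa3 was far higher in proximal colon in every rat. Its difference was the largest of the 9 members on this scale, a rank that depends on the added 16: with 1 added, Saa3 differed by -5.23 and Reg3b by -5.31. Its probe set, 1392647_at, had a lowest, median and highest value of 12.11, 12.45 and 13.12 in proximal colon and of 7.01, 7.41 and 7.72 in distal colon. Every proximal array was high, every distal array was low, and 4.39 log2 units separated the closest arrays of the regions. The mean was 12.53 ± 0.30 (SD, n = 9) against 7.43 ± 0.24 (SD, n = 9), a 34.3-fold proximal excess (95% interval 28.8- to 40.8-fold, limma adjusted p = 6.96e-17, exact sign permutation p = 0.00391). Within a rat the excess ran from 24.2-fold to 54.7-fold. The linear medians were 6359 and 153.7, so that the distal signal, unlike that of Reg3b, was above the filter level in every array.

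Dmbt1 was near the top of the scale in proximal colon and lower in distal colon of every rat. Its probe set, 1368007_at, had a lowest, median and highest proximal value of 12.96, 13.13 and 13.25, with as few as 0.164% of probe sets brighter in an array. The signal of an array can flatten at that level, and whether it did so for Dmbt1, which would bear on its proximal spread and its fold, was not tested. The distal values were 10.18, 10.21, 8.18, 10.86, 9.0, 10.11, 7.81, 7.91 and 9.60 in rats 1, 2, 3, 4, 5, 6, 7, 8 and 10. Rats 7, 8 and 3 were the lowest in distal colon, and the highest, rat 4, was still 2.09 log2 units below the lowest proximal array. The mean was 13.13 ± 0.09 (SD, n = 9) against 9.32 ± 1.14 (SD, n = 9), a 14.0-fold proximal excess (95% interval 8.56- to 23.0-fold, limma adjusted p = 8.25e-08, exact sign permutation p = 0.00391). Within a rat it ran from 4.82-fold to 37.0-fold. The 3 lowest distal arrays include those of rats 3 and 7, which had the most smooth muscle signal of the distal arrays. Over the 9 distal arrays, Dmbt1 had r = -0.617 and rho = -0.317 with the smooth muscle level (exact permutation p = 0.0823 and 0.41, adjusted 0.456 and 0.832 over 144 relations of members with marker levels), and r was 0.07 without rats 3 and 7. With the epithelial level it had r = 0.783 and rho = 0.783 (exact permutation p = 0.0193 and 0.0172, adjusted 0.273 and 0.496), and r was 0.647 without rats 2 and 4. The part of tissue makeup in the distal values was not tested.

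Pla2g2a, the membrane-breaking phospholipase, differed less. Its probe set, 1368128_at, read 10.99, 10.46, 12.26, 11.50, 10.24, 10.92, 10.74, 10.95 and 11.30 in proximal colon of the 9 rats in the order above. It read 9.17, 10.00, 9.89, 10.57, 10.14, 10.12, 10.43, 8.95 and 9.51 in distal colon. The regions overlapped, although each rat was higher in proximal colon, from 1.07-fold in rat 5 to 5.15-fold in rat 3. On the deposited linear scale rat 5 read 1057 in proximal and 1311 in distal colon. The direction in that rat rests on the normalization, and so does the exact sign permutation p below, which needs all 9 differences to share a sign. The mean was 11.04 ± 0.60 (SD, n = 9) against 9.86 ± 0.55 (SD, n = 9), a 2.26-fold proximal excess (95% interval 1.59- to 3.22-fold, limma adjusted p = 0.00128, exact sign permutation p = 0.00391). The highest array, proximal rat 3, was also the one with the most smooth muscle signal. Over the 9 proximal arrays, Pla2g2a and the smooth muscle level had a Pearson r of 0.843 (exact permutation p = 0.00766, adjusted 0.222 over the 144 relations), and a Spearman rho of 0.667 (exact permutation p = 0.0589, adjusted 0.644). Without rats 2 and 3 r was 0.438, so the relation rests on those arrays.

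Pla2g2a and lysozyme are also known as products of Paneth cells of the small intestine. Of 14 listed Paneth or small intestine markers, 10 were measured and 4 tested; proximal colon was higher for 2 and distal colon for 1. Their mean log2 level was 5.84 to 6.83 in proximal and 5.92 to 6.52 in distal arrays. The defensins Defa5 and Defa7 were between 4.06 and 4.80 in every array, below the filter level.

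Lyz2, the lysozyme of macrophages, had no regional difference larger than its spread. Its probe set, 1370154_at, read 10.78, 8.64, 10.79, 10.84, 9.80, 11.62, 10.82, 9.13 and 11.56 in proximal colon and 9.41, 10.54, 10.65, 11.25, 11.12, 9.81, 9.93, 10.86 and 11.06 in distal colon of the 9 rats in the order above. The regions overlapped throughout, with 5 rats higher in proximal and 4 higher in distal colon. The mean was 10.44 ± 1.03 (SD, n = 9) against 10.51 ± 0.65 (SD, n = 9), a distal minus proximal difference of 0.07 (SE 0.37, 95% interval -0.70 to 0.84, limma adjusted p = 0.912). The interval leaves room for a difference of up to 0.84 log2 units. A neighbouring lysozyme gene, Lyc2, carries Lyz2 as an older name, and whether the probe set separates the pair was not tested.

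Lyz2 varied among rats beside markers of B and plasma cells, of which 8 of 11 were measured. Their mean log2 level was 5.92 to 8.82 in proximal arrays (median 8.07) and 6.84 to 8.49 in distal arrays (median 7.70). Over the 9 distal arrays, Lyz2 and that level had a Pearson r of 0.942 (exact permutation p = 0.000397, adjusted 0.0286 over the 144 relations). Spearman's rho was 0.85 (exact permutation p = 0.00607, adjusted 0.292). Without rats 6 and 10, the farthest from the median, r was 0.940 (exact permutation p = 0.00159, adjusted 0.229). Of these, only the r over all 9 distal arrays stayed below 0.05 after adjustment. The distal marker levels lay at 6.84 to 7.07 in 3 rats, 7.55 to 7.70 in 2 rats and 8.21 to 8.49 in 4 rats. In proximal colon the marker level fell into separate clusters: rats 2, 3, 5 and 8 lay between 5.92 and 6.33, and the remaining 5 between 8.07 and 8.82, so no r is given. In that region Lyz2 was 8.64, 10.79, 9.80 and 9.13 in rats 2, 3, 5 and 8 and 10.78 or more in the others. Rat 3 was the exception among the low cluster, and its proximal array had the highest macrophage marker level, 8.43. Macrophage markers (12 of 12 measured, Lyz2 among them, 9 tested) ran from 6.85 to 8.43 in proximal and from 6.64 to 7.87 in distal arrays, and Cd14 was called as 1.49-fold higher in distal colon. With Lyz2 left out of them, their level and Lyz2 had r = 0.229 and rho = 0.167 in distal arrays (exact permutation p = 0.553 and 0.678, adjusted 0.892 and 0.904), and r was 0.860 without rats 3 and 7 (exact permutation p = 0.0292, adjusted 0.595). In proximal arrays r was 0.590 and rho 0.733 (exact permutation p = 0.0912 and 0.0311, adjusted 0.486 and 0.56). Without rats 3 and 6 r was 0.833 (exact permutation p = 0.021, adjusted 0.595). The share of B cells, macrophages or lymphoid tissue in each scraping was not tested.

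**Figure D3:**
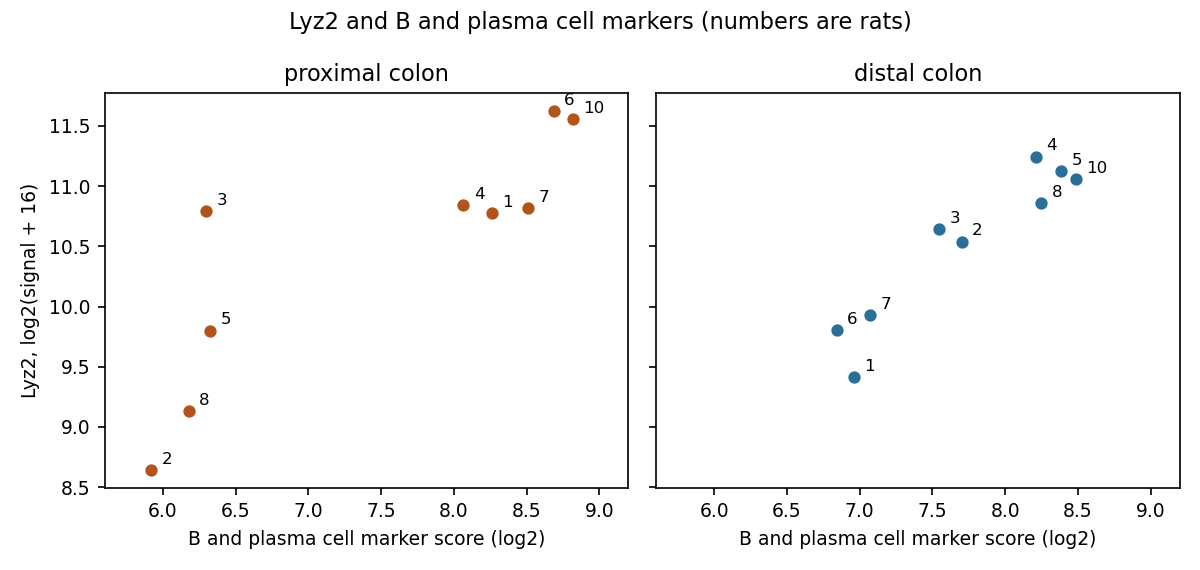
Log2(signal + 16) of Lyz2 against the mean log2 level of B and plasma cell markers, 1 point for each rat, in proximal and distal colon. In distal colon the 9 points rise together (r = 0.942), and in proximal colon the marker level splits into a low cluster of rats 2, 3, 5 and 8 and a high cluster of the others.

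Pigr, the IgA carrier, was bright in all arrays and even on the normalized scale. Its probe set, 1371099_at, had a lowest, median and highest value of 13.22, 13.45 and 13.49 in proximal colon and of 13.30, 13.44 and 13.55 in distal colon. The regions overlapped, with 5 rats higher in proximal and 4 in distal colon. The difference was 0.03 (SE 0.04, 95% interval -0.05 to 0.12, limma adjusted p = 0.6). That interval holds for the quantile-normalized scale only. With the deposited scaling the difference was -0.098 (SE 0.09), and with arrays centred on their medians it was 0.043 (SE 0.093). On the deposited linear scale Pigr read 9758 to 13230 in proximal and 8662 to 12810 in distal colon. At most 0.18% of probe sets were brighter in any array, where the signal of an array can flatten, and whether Pigr was in that range was not tested.

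The other genes of IgA secretion were read from a list of 16, of which 11 had a probe set and 10 were tested. In proximal colon 3 were higher and in distal colon 2, beside 14.5% and 16.2% of all genes, with a median difference of -0.02. Jchain, which joins IgA into dimers, was 2.78-fold higher in proximal colon (limma adjusted p = 0.00944), Irf1, an interferon response factor, 1.34-fold (adjusted p = 0.0187) and Xbp1, a secretory cell factor, 1.14-fold (adjusted p = 0.0158). Irf1 lost its call without rat 6 (adjusted p = 0.0578) and with arrays centred on their medians (adjusted p = 0.0524). Xbp1 lost its call with that centring (adjusted p = 0.154) and with the deposited scaling (adjusted p = 0.0562). Ccl28, a chemokine that draws IgA plasma cells, was 1.70-fold higher in distal colon (adjusted p = 0.00427) and Tnfsf13, an IgA switch and survival factor, 1.38-fold (adjusted p = 5.34e-05). The other 5 tested, Mzb1, Pou2af1, Tnfrsf17, Prdm1 and Il4r, were not called (limma adjusted p 0.198 to 0.959). Of these, Mzb1 differed by 0.03, Pou2af1 by 0.28 and Tnfrsf17 by -0.23, and all 3 are also on the B and plasma cell list.

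Other epithelial antibacterial and mucosal defence genes moved in both directions. Of 40 listed, 29 had a probe set and 23 were tested. Proximal colon was higher for 4 and distal colon for 8, beside 14.5% and 16.2% of all genes, with a median difference of 0.21. Zg16, a lectin of goblet cell mucus, was 3.65-fold higher in proximal colon (limma adjusted p = 9e-06), with 9 of 9 rats in that direction. Lcn2, which withholds iron from bacteria, was 2.52-fold higher in proximal colon (adjusted p = 0.00483, 8 of 9 rats). Its distal mean of 5.14 lay below the filter level, so it passed only through its proximal arrays. In the fit without a filter its limma adjusted p was 0.00657. The size depends on the added 16: the log2 difference was -1.34, and -2.21 with 1 added and -0.70 with 64 added. Lgals9 and Muc2 were higher there by 1.49-fold and 1.15-fold, and Muc2 lost its call with arrays centred on their medians (adjusted p = 0.109). Wfdc2, a small secreted protein of the whey acidic protein family, was 3.97-fold higher in distal colon (adjusted p = 3.35e-06) and Lbp, which hands lipopolysaccharide to its receptor, 2.39-fold (adjusted p = 0.000969), both in 9 of 9 rats. With the deposited scaling, 3 genes of this list instead of 8 were called higher in distal colon. Goblet cell markers, of which Muc2, Tff3 and Zg16 are also on this list, had a mean level of 11.99 to 12.44 in proximal and 11.30 to 11.83 in distal arrays. Of those 8 markers, Spink4 (7.13-fold), Zg16 and Muc2 were higher in proximal colon, Tff3 was 1.33-fold higher in distal colon, and Clca1, Fcgbp, Agr2 and Spdef were not called. The part of goblet cells in these differences was not tested.

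Signals known to induce Reg3 genes, with receptors and regulators of their pathways, were read from a list of 43. Of these, 35 had a probe set and 32 were tested. In proximal colon 4 were higher and in distal colon 6, beside 14.5% and 16.2% of all genes, with a median difference of 0.06. Il1r1, the interleukin 1 receptor, was 1.69-fold higher in proximal colon (limma adjusted p = 6.35e-05), and Il17re, Il10rb and Tyk2 were 1.40-, 1.27- and 1.13-fold higher. Tyk2 (adjusted p = 0.0397) lost its call without any 1 of rats 1, 2, 4, 5, 6, 7 and 8 (adjusted p 0.0706 to 0.0897), with the deposited scaling (adjusted p = 0.0703) and with centred arrays (adjusted p = 0.275). Il10rb is a subunit of the interleukin 22 receptor, and Il17re of the interleukin 17C receptor. Nfkbiz, a nuclear NF-kB cofactor, was 1.75-fold higher in distal colon (adjusted p = 3.68e-05), Tlr4, the lipopolysaccharide receptor, 1.87-fold (adjusted p = 0.0166) and Il18, an epithelial cytokine, 1.42-fold (adjusted p = 0.00955). With the deposited scaling only Nfkbiz of the 6 stayed called, and Tlr4 and Il18 had adjusted p-values of 0.054 and 0.0976. Stat3 differed by 0.06 (adjusted p = 0.862) and Socs3, a Stat3 target, by -0.38 (adjusted p = 0.0965), neither called. Il22, Il22ra1 and Il17a had no probe set named here.

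**Figure D4:**
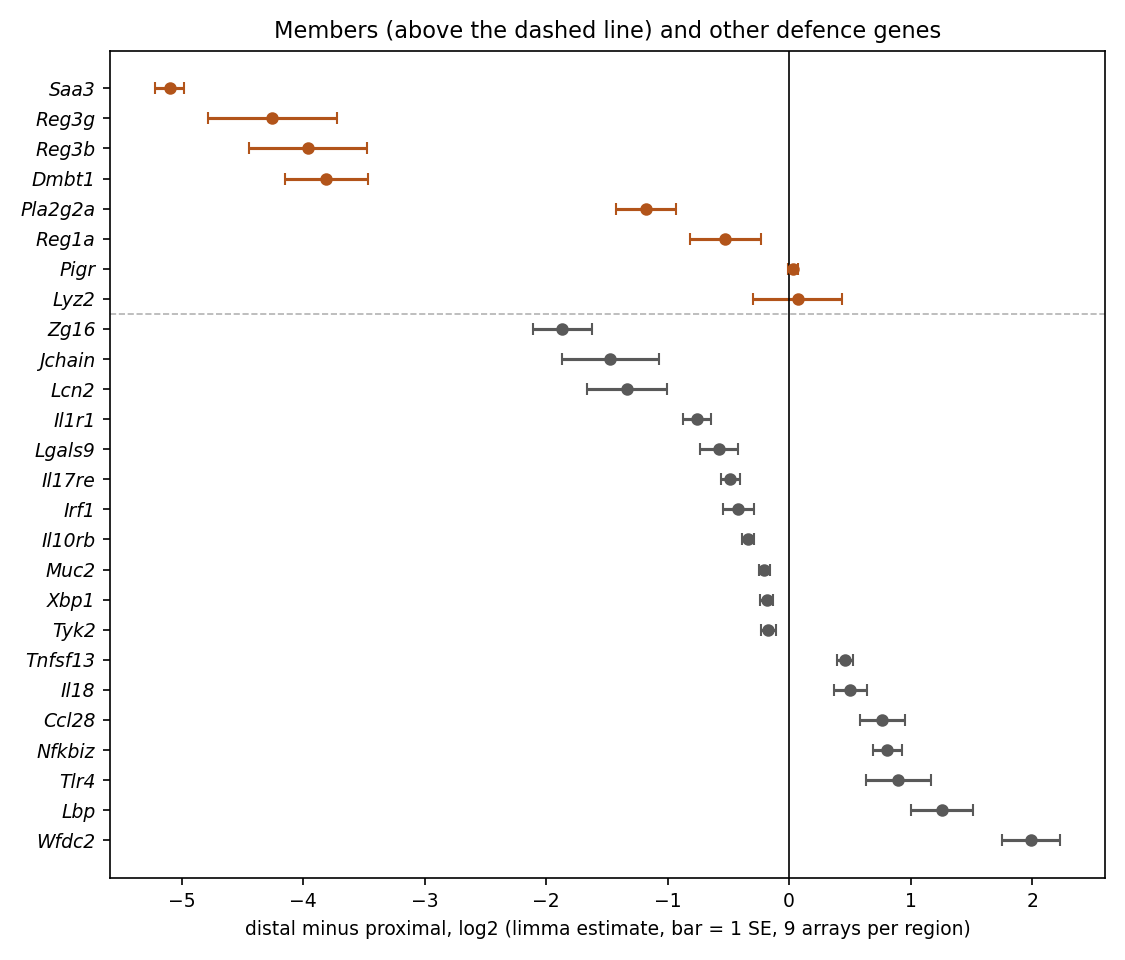
Distal minus proximal difference on the log2(signal + 16) scale, as the limma estimate with a bar of 1 SE (9 arrays in each region), for the 8 tested members above the dashed line and the named genes of the defence, inducing signal and IgA lists below it. Saa3, Reg3g, Reg3b and Dmbt1 lie between -5.10 and -3.81, farther from 0 than the listed genes, which run from -1.87 for Zg16 to 1.99 for Wfdc2.

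The relation of a member's proximal level with its distal level across the 9 rats was read for each of the 9 members, and 0 had an exact permutation p below 0.05 for Pearson's r or Spearman's rho, before or after adjustment. Between members within a region, 72 relations were read over 9 arrays each, of which 6 had an unadjusted exact permutation p for Pearson's r below 0.05 and 0 after adjustment. Reg3b and Pigr in proximal colon had r = -0.834 (exact permutation p = 0.00462, adjusted 0.195) and rho = -0.644 (exact permutation p = 0.0683, adjusted 0.614), with r = -0.561 without rats 3 and 6. With the deposited scaling the r of this pair was -0.478 (exact permutation p = 0.194, adjusted 0.82). Reg3g and Saa3 in proximal colon had r = 0.836 (exact permutation p = 0.00542, adjusted 0.195) and rho = 0.867 (exact permutation p = 0.00451, adjusted 0.325), with r = 0.806 without rats 4 and 8 and 0.62 with the deposited scaling. Reg3b and Reg3g in proximal colon had r = 0.623 (exact permutation p = 0.0726, adjusted 0.545) and rho = 0.767 (exact permutation p = 0.0214, adjusted 0.606), and r was 0.396 without rats 3 and 6. Rat 5 was high for Reg3g (11.64) and near the median for Reg3b (7.94), while rats 3 and 6 were high for both.

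The genes whose levels were most like each member's were found by the Pearson r over the 18 arrays after the mean of each region was removed, among 11269 genes; these are the top of a long ranking and are given as a description, with no p. For Reg3g they were S100g (0.90), Osr2 (0.82) and Slc51a (0.81), and for Reg3b Lrrc28, Ccnd3 and Herc2 (0.80, 0.80 and 0.78). S100g, a calcium-binding protein, was higher in distal colon while Reg3g was higher in proximal colon. For Reg3a they were Sycn, Ctrl and Cel (0.92, 0.82 and 0.81) and for Reg1a Pnlip, Ctrc and Pla2g1b (0.92, 0.91 and 0.83), all 6 known as pancreatic acinar products. In distal arrays alone the r with these genes was 0.28, 0.66 and 0.16 for Reg3a and 0.26, 0.29 and -0.43 for Reg1a. With the acinar marker level in proximal arrays, r was 0.948 for Reg3a and 0.980 for Reg1a. Without rats 3 and 4 it was -0.578 and 0.651, so these likenesses depend on the proximal array of rat 4. Dmbt1 was followed by Lias, Slc39a11 and Abcg2 (0.82, 0.78 and 0.77), Saa3 by Fars2, Upf2 and Vps13b (0.79, 0.79 and 0.78) and Pla2g2a by Cap2, Depp1 and Pkia (0.80, 0.78 and 0.73). Not every likeness held in both regions: Ccnd3 had r = -0.015 with Reg3b in distal arrays, and Abcg2 -0.117 with Dmbt1 in proximal arrays. For Lyz2 they were Plek, Clu and Ciita (0.96, 0.95 and 0.95), with an r of 0.89 or more in each region alone, and for Pigr Itfg2, Hid1 and Cers4 (0.82, 0.81 and 0.80).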

How the data were processed

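The deposited table holds linear signal intensities of 31099 probe sets that the authors computed with MAS5, according to the submitters' processing notes. The sources used here do not give its version or scaling target. Arrays were not on a common scale, with 2%-trimmed means between 210.3 and 341.2. Controls were dropped, which left 31042 probe sets, log2(intensity + 16) was quantile-normalized, the lowest 30% by mean were left out, and distal was compared with proximal colon in limma 3.58.1 (R 4.3.3; lmFit, eBayes with trend, two-sided, Benjamini-Hochberg over 21729 probe sets, no block). The fit was tested on simulated data. A gene was read from its probe set of highest mean (11407 genes). The number of arrays limits the precision. Permutation tests and correlations used Python 3.11.15 with numpy 2.4.6 and scipy 1.17.1, and matplotlib 3.10.9 drew the plots. Columns without a sample numbered 0.

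Members and gene lists were chosen with earlier results of these data known. Text names all members, up to 4 called genes of largest difference in each list, genes that complete a count of 5 or fewer, and the 3 genes most like each member.

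The rat number in the labels pairs the arrays, since both come from 1 animal. After the mean of each region was removed, a rat's own arrays had correlations of 0.001 to 0.569 (median 0.226), above 0.1 in 6 of 9 rats. Alternatives were the scaling, pseudocount, filter, trend, the rat as a block, probe set averaging and leaving out rats. Leaving out the proximal array of rat 4, or the 3 arrays of highest smooth muscle level, was added after seeing the data.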

Additional observations from a re-analysis of the deposited data

Results flagged for a closer look

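In 34 groups of 9 arrays (each member and each marker list in each region), the gap of the highest or lowest array to the next was set against the range of the group; chance alone marks about 1 in 20 such groups. Reg3a in proximal colon was highest in rat 4 at 6.96, with the next array at 4.89. Reg1a in proximal colon was highest in rat 4 at 8.33, with the next at 6.02. The mean log2 level of pancreatic acinar markers was 9.43 in the same array and 5.46 in the next. Pigr in proximal colon was lowest in rat 6 at 13.22, with the next at 13.36. In the proximal array of rat 3, the smooth muscle level was 12.21 with the next at 8.54, the epithelial level was lowest at 12.37 with the next at 12.55, and the Paneth or small intestine level was lowest at 5.84 with the next at 6.36.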

How the results depend on the processing

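The 5 called members kept their direction and call under all 21 alternatives, with log2 differences of -5.31 to -2.68 for Reg3b, -4.78 to -3.38 for Reg3g, -4.0 to -3.43 for Dmbt1, -5.24 to -4.75 for Saa3 and -1.31 to -1.02 for Pla2g2a, and highest adjusted p-values of 7.91e-05, 8.07e-05, 2.49e-06, 3.8e-11 and 0.006 in limma. The ends for Reg3b came from pseudocounts of 1 and 64. Reg1a was not called in the 20 alternatives that tested it (adjusted p 0.128 to 0.338). Uncalled differences near 0 changed sign: Lyz2 was -0.022 with the deposited scaling and between -0.159 and 0.305 without 1 rat, and Pigr was -0.098 with the deposited scaling and -0.004 without the proximal arrays of rats 3 and 6. With the rat as a replicate block, adjusted p was 2.98e-05 for Reg3b, 2.47e-05 for Reg3g and 0.151 for Reg1a, and no member's call changed. Counts moved by more than 1.5 times with the deposited scaling, where genes called higher in distal colon numbered 450 against 1853 of all genes, 3 against 8 of the defence list and 1 against 6 of the inducing signals. Higher distal calls were 52.8% of all calls in the main setting, 22.5% with the deposited scaling (median of all genes -0.10) and 59.1% with arrays centred on their medians, where the IgA list had 1 gene higher in proximal colon instead of 3; beyond the scaling itself, the cause was not tested. Signals near the low end of the scale limit the folds of Reg3b and Reg3g.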
